A study of Rattus norvegicus with 70 samples.

Results

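The lung response to ozone was measured in messenger RNA of male Wistar-Kyoto rats, an inbred strain, in 6 lung libraries from rats that breathed 0.8 ppm ozone for 4 h (labelled O3 13, 14, 15, 16, 19 and 20), set against 6 lung libraries from rats that breathed air for 4 h (labelled Air 1, 2, 7, 8, 9 and 10). Of 19441 genes with a symbol in the lung table, the 14828 with a mean normalised count of at least 10 over the 12 libraries were compared. No other allele, agent or diet is given in the labels, and both groups share strain, sex and exposure length. The genes at the edge of that minimum were Epor, the erythropoietin receptor gene, just inside with a mean of 10.013, and Pcdhb21, a protocadherin gene, just outside with a mean of 9.994. Every air library has a lower number than every ozone library, so an order of handling that followed the numbers cannot be told apart from ozone. Whether each library is a separate rat is not spelled out in the labels, and the p-values below cover the spread between libraries.

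Ozone, a strongly oxidising gas, reacts with the fluid lining the airways and alveoli before it reaches the cells beneath. The injured epithelium and the resident macrophages are known to release cytokines and chemokines, which draw neutrophils out of the blood, and the barrier is known to leak protein into the airspace. Inhaled ozone is also known in rats to activate the sympathetic nerves and the adrenal glands, so circulating adrenaline and corticosterone reach the lung along with the gas itself. Alveolar type 2 cells make surfactant and pump sodium and water out of the airspace, and the capillary endothelium forms the other face of the barrier.

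Recovered reads per lung library ran from 10714447 to 13730483. Lung identity was clear in every library: Sftpc, the surfactant protein C gene of alveolar type 2 cells, had 63908, 74275 and 93870.0 in ozone lungs, against 51061, 63117 and 75539 in air lungs (lowest, median and highest normalised count, as in every triplet of values below). Scgb1a1, the secretory protein of club cells, had 12661, 16233 and 18515 in ozone lungs, against 12672, 18022 and 23957 in air lungs. Some defining markers were near 0, among them the basal-cell keratin Krt5, at 0 in 7 of 12 libraries. Air 1, Air 2 and Air 10 stood apart. The heart-muscle myosin Myh6 had 1752 and 3571 normalised counts in Air 1 and Air 2, against 0 to 564 in ozone libraries and 0 to 184 in the other 4 air libraries. Bpifa1, a secreted protein of the large airways, had 825 and 1274 in Air 1 and Air 2, against at most 53.4 in ozone libraries and 67.5 in the other air libraries. Ucp1, the uncoupling protein of brown fat, had 2424 in Air 10 and 817 in Air 2, against at most 58.5 in an ozone library. Summed over the 12 cardiac and skeletal muscle markers tested, levels ran from 216 to 1864 in ozone lungs and from 501 to 8788 in air lungs. The 7 adipocyte markers summed to 31.3 to 1199 in ozone lungs and 27.7 to 5799 in air lungs. No gene of either list passed the threshold in limma. Where the count of a list below moved by over 1.5 times without these or other libraries, the moved count is given beside it, and the part of the other tissue in them was not tested. In bulk tissue, fewer cells of a type and less RNA per cell cannot be told apart.

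**Figure D1:**
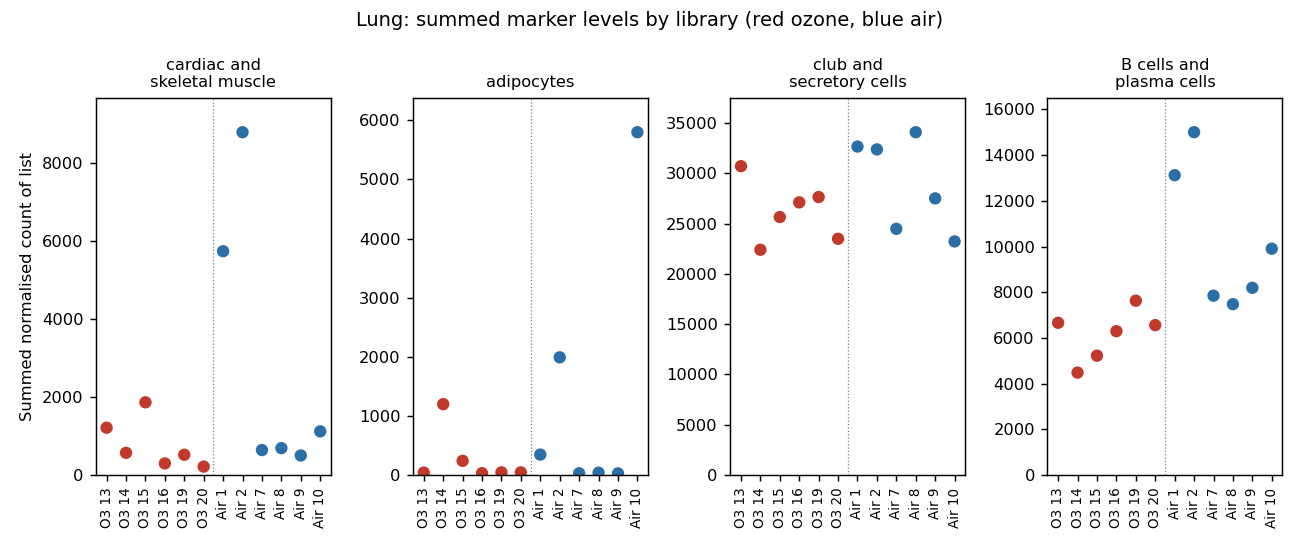
Summed normalised count (vertical axes, linear, from 0) of 4 cell-marker lists in each lung library (horizontal axes; red points ozone, blue points air). Muscle markers peak in Air 1 and Air 2, adipocyte markers in Air 10, and B-cell markers are highest in Air 1 and Air 2, with 7631 the highest sum of any ozone library.

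In limma, with Benjamini-Hochberg adjustment over all 14828 genes and a threshold of 0.05, 2623 genes (17.7%) differed after ozone: 1410 rose (9.51%) and 1213 fell (8.18%). By at least 2-fold, 254 rose (1.71%) and 202 fell (1.36%). In 821 genes (5.54%) every ozone library lay above every air library, and in 593 genes (4.0%) every ozone library lay below every air library. The groups thus did not overlap in 9.54% of genes. On the recovered reads, edgeR called 9.13% risen and 8.94% fallen. The median log2 fold change over all genes tested was 0.002. Fold changes are ozone over air on the log2(value + 1) scale, ± standard error, and understate the change of genes at low levels. Without Air 1 and Air 2, 1019 genes rose (6.91%) and 750 fell (5.09%), and without Air 1, Air 2 and Air 10 together, 1522 rose (10.3%) and 1260 fell (8.55%). These shares are the background for each gene group below.

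**Figure D2:**
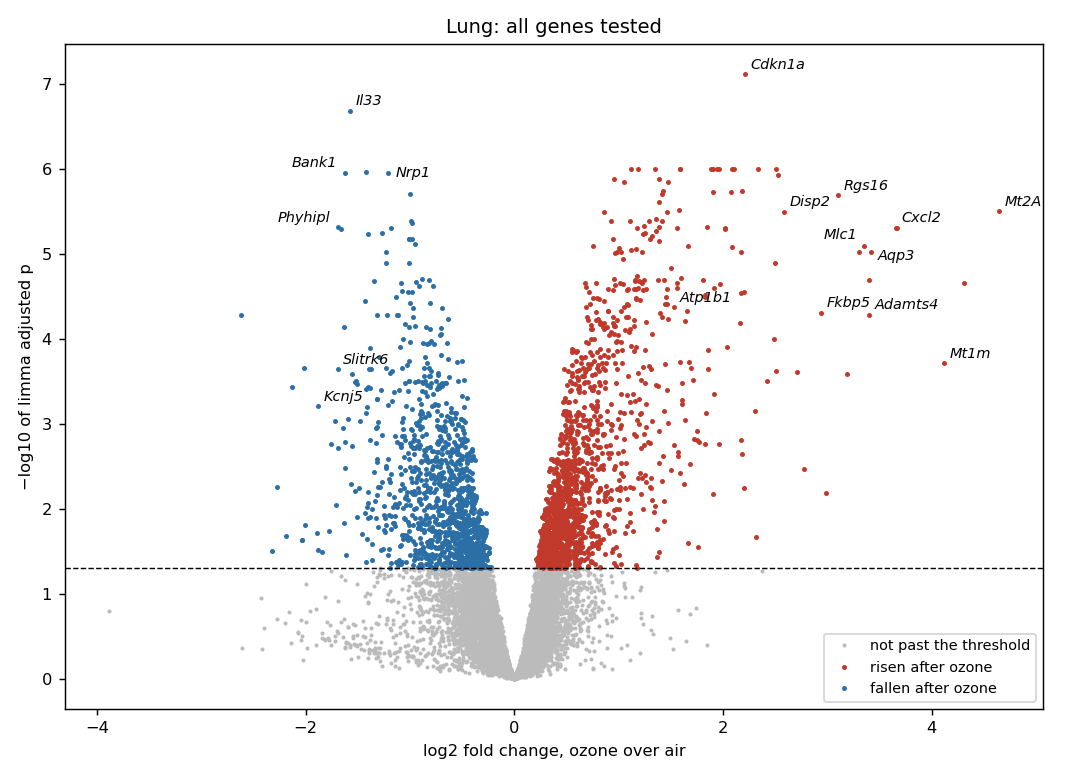
Log2 fold change of ozone over air (horizontal axis) against the negative log10 of the limma adjusted p (vertical axis) for the 14828 lung genes tested; the dashed line marks the threshold of 0.05. Red points are the 1410 genes that rose and blue points the 1213 that fell; Mt2A lies farthest to the right among labelled genes, and Cdkn1a and Il33 are highest.

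Metallothioneins, small cysteine-rich proteins that bind zinc and copper and are induced by metals, oxidants and glucocorticoids, headed the genes that rose. Mt2A had 466, 1095 and 1383 in ozone lungs, against 20.3, 34.6 and 80.4 in air lungs. No ozone library came near the highest air library, and the log2 fold change was 4.64 ± 0.36 (limma adjusted p = 3.17e-06). Mt1 had 178, 343 and 453 in ozone lungs, against 33.3, 49.0 and 106 in air lungs, with a log2 fold change of 2.49 ± 0.31 (adjusted p = 9.99e-05), and Mt1m rose by 4.12 ± 0.55 (adjusted p = 0.000194). Both also had ozone libraries wholly above the air libraries. Of the 17 genes tested for metal handling, 5 rose and 1 fell, 3 and 1 without Air 1 and Air 2, with a median log2 fold change of 0.38. Fth1, the ferritin heavy chain that stores iron, rose by 0.57 ± 0.15, not past without Air 1 and Air 2 (adjusted p = 0.0641), and Steap2, a metalloreductase, rose by 0.94 ± 0.16. Slc39a10, a zinc importer, had 473, 562 and 674 in ozone lungs, against 761, 965 and 1062 in air lungs and a log2 fold change of −0.70 ± 0.12.

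The promoters of the metallothionein genes are shown because metal response elements, the sites of the zinc-sensing factor MTF1, are their known control sites. Of the 14828 genes, 10335 had a RefSeq promoter of the GRCr8 build, which differs from the rn6 build of the counts, and the 250 bases upstream of the start site were searched on both strands for TGCACNC and TGCGCNC. The Mt2A stretch lies at chr19:10838747-10838938 and the Mt1 stretch at chr19:10833014-10833161, both on the minus strand, written 5′ to 3′ with matches in capitals.

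Mt2A: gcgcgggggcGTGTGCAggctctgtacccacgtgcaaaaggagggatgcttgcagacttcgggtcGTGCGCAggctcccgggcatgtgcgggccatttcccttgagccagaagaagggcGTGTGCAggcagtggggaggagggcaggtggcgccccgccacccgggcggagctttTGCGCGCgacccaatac
Mt1: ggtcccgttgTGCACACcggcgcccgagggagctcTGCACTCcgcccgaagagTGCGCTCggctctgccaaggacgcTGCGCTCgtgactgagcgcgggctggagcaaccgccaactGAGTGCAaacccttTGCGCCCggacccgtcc

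Mt2A held 4 matches and Mt1 held 6. Among the 10335 promoters, 30.6% held at least 1 match, 0.445% held at least 4 and 0.116% held at least 5. A match is a run of letters and not a measured site.

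Outside the metallothioneins, the 15 highest fold changes with no overlap between the groups took in channels, signalling regulators and secreted proteins. Aqp3, a channel for water and glycerol, had 194, 238 and 379 in ozone lungs, against 8.87, 23.7 and 44.1 in air lungs, a log2 fold change of 3.41 ± 0.33 (adjusted p = 9.7e-06). Adamts4, a protease that cleaves the proteoglycan aggrecan, had 49.4, 105 and 254 in ozone lungs, against 2.77, 10.7 and 12.2 in air lungs and rose by 3.40 ± 0.40. Rgs16, which speeds the switching-off of G proteins, had 133, 248 and 313 in ozone lungs, against 16.9, 24.5 and 50.5 in air lungs and rose by 3.10 ± 0.25. In all of these genes the lowest ozone library exceeded the highest air library, as the choice of this group required. Selp, the P-selectin of activated endothelium and platelets, had 61.5, 175 and 268 in ozone lungs, against 15.5, 29.3 and 35.0 in air lungs and rose by 2.42 ± 0.35. Sphk1, which makes the lipid signal sphingosine-1-phosphate, had 89.8, 113 and 127 in ozone lungs, against 7.76, 21.3 and 28.2 in air lungs and rose by 2.49 ± 0.25. The other genes in this group were Mlc1, Fkbp5, Disp2, Kcnmb4, Tfpi2, Clec12b and an unnamed gene, AABR07004868.2, with log2 fold changes between 2.34 for Clec12b, a C-type lectin receptor, and 3.35 for Mlc1, a membrane protein. Cdkn1a, the p21 inhibitor of the cell cycle, had 2711, 3244 and 4071 in ozone lungs, against 636, 738 and 826 in air lungs, a log2 fold change of 2.21 ± 0.11 and the lowest adjusted p in lung (7.75e-08).

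Among the genes that fell, Il33 had the lowest adjusted p. Il33 encodes interleukin-33, an alarmin held in the nucleus of barrier cells and released when they are damaged. It had 1421, 1627 and 1780.4 in ozone lungs, against 4180.2, 4932 and 5353 in air lungs, a log2 fold change of −1.57 ± 0.09 (adjusted p = 2.09e-07). The highest ozone library had less than every air library. Kcnj5, an inwardly rectifying potassium channel, had 14.7, 19.9 and 29.8 in ozone lungs, against 36.1, 75.7 and 134 in air lungs and a log2 fold change of −1.88 ± 0.30. Its highest levels were in Air 1 (134) and Air 2 (128), which stood apart in heart-muscle markers, and it also passed without them. Bank1, a scaffold of B-cell receptor signalling, had 216, 287 and 327 in ozone lungs, against 657, 922 and 987 in air lungs and a log2 fold change of −1.63 ± 0.12. The remaining genes among the 15 lowest without overlap had log2 fold changes between −2.27 for LOC691828 and −1.43 for Prune2. They took in Slitrk6, a transmembrane protein of neurons (−1.69 ± 0.24), and Cemip, which degrades hyaluronan (−1.56 ± 0.22).

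**Figure D3:**
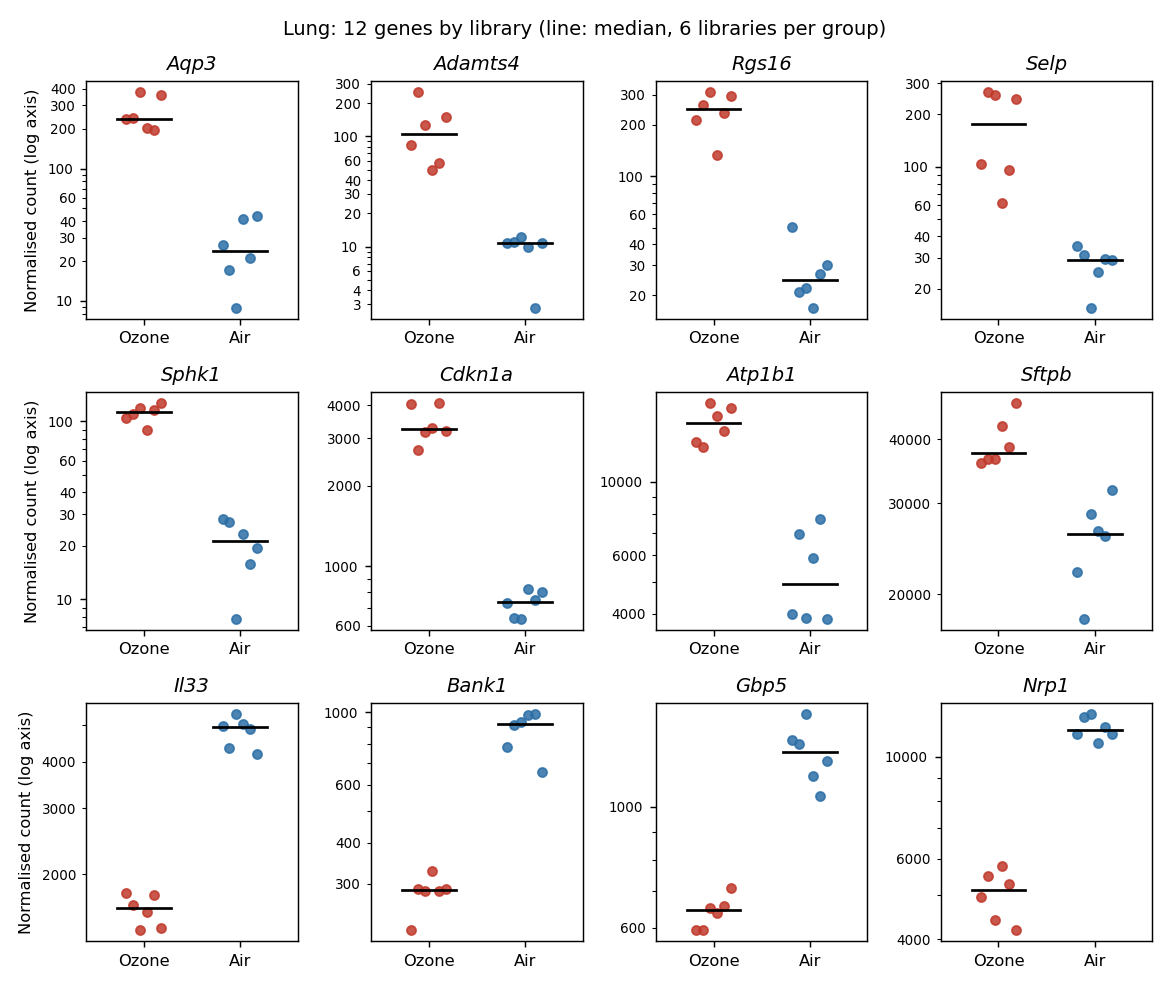
Normalised counts (vertical axes, log scale) of 12 genes in the 6 ozone libraries (left, red) and 6 air libraries (right, blue) of lung, with the median as a black line. The 12 genes were picked with their values known, several by a rule that requires no overlap. In all 12 panels the groups are apart, which held for 9.54% of all genes tested. The upper rows show genes higher after ozone and the lowest row Il33, Bank1, Gbp5 and Nrp1, which were lower.

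Chemokines that act on neutrophils rose, at low levels in both groups. Of 22 chemokine genes tested, 4 rose and 3 fell. Cxcl2 had 31.0, 49.1 and 78.7 in ozone lungs, against 1.00, 3.54 and 4.86 in air lungs, a log2 fold change of 3.66 ± 0.33 (adjusted p = 4.98e-06). Cxcl1 had 36.3, 72.3 and 109 in ozone lungs, against 9.04, 15.7 and 19.4 in air lungs and a log2 fold change of 2.17 ± 0.27. Cxcl6 had 43.4, 72.2 and 109 in ozone lungs, against 3.7, 17.1 and 34.7 in air lungs and a log2 fold change of 2.18 ± 0.41. All 3 are ligands of the neutrophil receptor CXCR2, and in each the groups did not overlap. Ccl2, the monocyte chemoattractant, had 21.2, 59.2 and 105 in ozone lungs, against 14.8, 26.1 and 40.9 in air lungs, a log2 fold change of 1.05 ± 0.40 and adjusted p = 0.0814, and without O3 16 it had 1.30 and passed (adjusted p = 0.0282). Cxcl12, which retains leukocytes and progenitors, fell to 908 ± 57.4 in ozone lungs, against 1252 ± 148 in air lungs (SD, n = 6 each), a log2 fold change of −0.46 ± 0.09, and Ccl4, a chemokine of macrophages, had −0.85 ± 0.18.

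The promoter stretches of these chemokines and of the NF-kappa-B inhibitor Nfkbia are shown because NF-kappa-B sites in them are known control elements. The search was for GGG and TTTCC separated by any 2 bases, on either strand and in the same 250-base windows, and the matches are in capitals. The stretches lie at chr14:17479376-17479443, chr14:17467280-17467349, chr14:17596476-17596525 and chr6:78597074-78597123, all on the minus strand of GRCr8.

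Cxcl1: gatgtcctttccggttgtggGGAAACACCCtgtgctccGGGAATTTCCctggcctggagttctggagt
Cxcl2: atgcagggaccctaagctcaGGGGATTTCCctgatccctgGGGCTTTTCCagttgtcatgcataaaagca
Cxcl6: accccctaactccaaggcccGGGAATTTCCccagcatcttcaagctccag
Nfkbia: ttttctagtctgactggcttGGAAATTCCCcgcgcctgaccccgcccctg

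Cxcl1 and Cxcl2 held 2 matches each, and Cxcl6 and Nfkbia held 1 each. Of the 10335 promoters, 0.0484% held at least 2 matches and 1.53% at least 1. Nfkbia, whose protein holds NF-kappa-B in the cytoplasm, had 5663, 6581 and 7476 in ozone lungs, against 2149.8, 3045 and 3241 in air lungs, a log2 fold change of 1.16 ± 0.11 (adjusted p = 8.86e-06). Of 20 genes tested for NF-kappa-B and TNF signalling 5 rose and 2 fell, among them Zc3h12a, a nuclease that degrades cytokine transcripts, at 0.80 ± 0.12, and Rela, a subunit of NF-kappa-B, at 0.41 ± 0.09. The fallen count was 0 without Air 2, Air 9, O3 16 or O3 20 alone or without Air 1 and Air 2, and 1 without Air 1, Air 7, Air 8, O3 13, O3 15 or O3 19.

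Cytokine genes and their brakes rose or fell in several families, against 9.51% risen and 8.18% fallen over all genes tested. In the IL-1 family, 3 of 13 genes rose (23.1%) and 1, Il33, fell (7.69%, near the share over all genes). Il1a had 264, 525 and 843 in ozone lungs, against 152, 206 and 238 in air lungs and a log2 fold change of 1.38 ± 0.24, and Il1r2, the decoy receptor that soaks up interleukin-1, rose by 1.83 ± 0.21. Il1b had a log2 fold change of −0.14 ± 0.15 and adjusted p = 0.561. In the IL-6 family, 5 of 13 rose (38.5%) and 0 fell. Socs3, an inhibitor of cytokine signalling, had 251, 388 and 421 in ozone lungs, against 102, 147 and 208 in air lungs and rose by 1.26 ± 0.20, and Il6r, the interleukin-6 receptor, rose by 0.88 ± 0.12. Among 15 pattern receptors, 3 rose (20.0%) and 2 fell (13.3%). Cd14, the lipopolysaccharide co-receptor, had 656, 702 and 898 in ozone lungs, against 271, 306 and 379 in air lungs and rose by 1.25 ± 0.11. Tlr5, the flagellin receptor, rose by 1.26 ± 0.27, and the groups were apart in both genes. The 2 that fell were Cd180, at −0.98 ± 0.16, and Tlr2, a receptor for bacterial lipoproteins, at −0.54 ± 0.14, which did not pass without Air 1 and Air 2 (adjusted p = 0.0861). Without Air 10, 5 pattern receptors fell. In prostaglandin and leukotriene metabolism, 7 of 23 rose (30.4%) and 2 fell (8.7%, near the share over all genes). The fallen count was 1 without Air 1 and Air 2, or without Air 2, Air 7, Air 8, Air 9, O3 13, O3 15, O3 19 or O3 20 alone. Ptgs2, the inducible cyclooxygenase, had 81.3, 158 and 239 in ozone lungs, against 62.2, 76.1 and 89.8 in air lungs and rose by 1.01 ± 0.21 (adjusted p = 0.00461), with the groups overlapping. Ptger1, a prostaglandin E2 receptor, rose by 1.04 ± 0.11, and Ptgir, the prostacyclin receptor, had −0.65 ± 0.14.

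Markers of neutrophils and lymphocytes fell or did not pass, while those of macrophages went both ways. Of the 14 neutrophil markers tested, 0 rose and 6 fell, with a median log2 fold change of −0.41. Csf3r, the G-CSF receptor of neutrophils, had 134, 186 and 238 in ozone lungs, against 283, 349 and 455 in air lungs and a log2 fold change of −0.92 ± 0.14. S100a9, a calcium-binding protein abundant in neutrophils, had 180.2, 217 and 251 in ozone lungs, against 260.2, 308 and 374 in air lungs and a log2 fold change of −0.52 ± 0.12. Every ozone library lay below every air library in these genes and in their list's sum, which ran from 1376 to 1539 in ozone lungs and from 1813 to 2187 in air lungs. The transcripts of Cxcr2 had a log2 fold change of −0.28 ± 0.19 and adjusted p = 0.336.

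Of 11 NK and cytotoxic cell markers, 0 rose and 7 fell, 4 without Air 1 and Air 2. Gzmb, a granule protease, had 46.9, 62.1 and 106 in ozone lungs, against 116, 188 and 204 in air lungs and a log2 fold change of −1.37 ± 0.19 (adjusted p = 0.000227). Gzma, another granule protease, had −0.88 ± 0.15, and the transcription factor Tbx21 had −1.13 ± 0.21. Of 17 T-cell markers, 3 fell and 0 rose. Lck, a kinase of the T-cell receptor, had 41.8, 73.6 and 112 in ozone lungs, against 122, 132 and 179 in air lungs and a log2 fold change of −0.93 ± 0.19, while Cd4 had −0.15 ± 0.15 and adjusted p = 0.527. Of 20 B-cell and plasma-cell markers, 9 fell and 0 rose, 5 without Air 1 and Air 2. Their summed level ran from 4484 to 7631 in ozone lungs, against 7478 to 15005 in air lungs, with Air 2 highest. Pou2af1, a B-cell coactivator, had 40.6, 49.8 and 59.5 in ozone lungs, against 89.95, 109 and 172 in air lungs and a log2 fold change of −1.23 ± 0.17. Of 13 monocyte and interstitial macrophage markers, 5 rose and 4 fell, 3 and 2 without Air 1 and Air 2; 2 fell without Air 1, Air 2 and Air 10, and the risen count was also 3 without Air 2, Air 8, O3 13, O3 19 or O3 20. Cd163, the haemoglobin scavenger receptor, rose by 0.81 ± 0.20, and Cx3cr1, the fractalkine receptor, had 31.3, 51.9 and 62.1 in ozone lungs, against 96.2, 111 and 175 in air lungs and a log2 fold change of −1.38 ± 0.21.

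Of 23 interferon-stimulated genes tested, 14 fell (60.9%) and 0 rose, with a median log2 fold change of −0.54. Gbp5, a guanylate-binding GTPase of antimicrobial defence, had 594, 646 and 711 in ozone lungs, against 1045, 1259 and 1477 in air lungs, a log2 fold change of −0.96 ± 0.09 (adjusted p = 7.7e-06). Rsad2, the antiviral protein viperin, had 261, 272 and 393 in ozone lungs, against 511, 672 and 776 in air lungs and a log2 fold change of −1.13 ± 0.13. In both the groups did not overlap. Mx2, an antiviral GTPase, had −1.02 ± 0.11, and Gbp2 had −0.84 ± 0.11. Irf7, a regulator of interferon genes, had −0.27 ± 0.11 and adjusted p = 0.112. Lymphocytes and neutrophils also make many of these transcripts, and some of their own markers fell in the same libraries (values above), a part that was not tested. Leaving out 1 library at a time gave 11 to 15 fallen genes, and 11 fell without Air 1 and Air 2. The interferon response element, GAAA and GAAA separated by any 2 bases on either strand, was searched in the promoters of 5 of these genes, and 3 of the 4 stretches with a match are shown, with the match in capitals: chr2:234005676-234005725 and chr2:233910923-233910972 on the plus strand and chr6:48788238-48788287 on the minus strand.

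Gbp2: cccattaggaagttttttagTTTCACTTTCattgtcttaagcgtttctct
Gbp5: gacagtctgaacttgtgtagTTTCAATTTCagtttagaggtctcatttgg
Rsad2: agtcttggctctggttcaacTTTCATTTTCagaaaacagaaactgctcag

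Gbp2, Gbp5, Rsad2 and Ifi44 each held 1 match and Mx1, which had a log2 fold change of −0.86 ± 0.14, held 0. Of all 10335 promoters, 2.73% held at least 1. The 5 genes were picked from the list with their values known, and the share over the whole list was not taken. Whether these promoters hold the element more often than others was therefore not tested.

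Many genes of surfactant and some of fluid clearance rose, with few that fell. Of 19 surfactant genes, 9 rose (47.4%) and 0 fell, with a median log2 fold change of 0.46. Sftpb, the protein that spreads surfactant lipid, had 36006, 37602 and 47055 in ozone lungs, against 17888, 26213 and 31868 in air lungs and a log2 fold change of 0.65 ± 0.13 (adjusted p = 0.00279). The ozone libraries all lay above the air libraries. Sftpa1 rose by 0.49 ± 0.11 and Sftpd, a collectin of innate defence, by 0.49 ± 0.11, the second not past without Air 1 and Air 2 (adjusted p = 0.0502). Fasn, the fatty acid synthase that supplies surfactant lipid, had 8514, 11339 and 14068 in ozone lungs, against 5059, 6449.5 and 7142 in air lungs and rose by 0.85 ± 0.12, and Chka, the choline kinase of phosphatidylcholine synthesis, rose by 0.51 ± 0.10. Sftpc had 0.28 ± 0.12 and adjusted p = 0.13, and Abca3, the lipid transporter of lamellar bodies, had 0.10 ± 0.10 and adjusted p = 0.523. Lamp3, a lamellar-body membrane protein, fell to 6480.1 ± 889 in ozone lungs, against 9262 ± 1634 in air lungs (SD, n = 6 each). It was counted with the alveolar type 2 cell markers and not with the 19 surfactant genes. Of 14 such markers tested, 4 rose (28.6%) and 2 fell (14.3%), with a median log2 fold change of 0.12.

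Of 22 genes of sodium, chloride and water transport, 7 rose and 0 fell, 1 falling without O3 15. Atp1b1, the beta subunit of the sodium pump, had 12778, 15023 and 17311 in ozone lungs, against 3857, 4930.4 and 7723 in air lungs, a log2 fold change of 1.53 ± 0.18 (adjusted p = 4.3e-05). Scnn1a, a subunit of the epithelial sodium channel ENaC, rose by 0.56 ± 0.12, and Aqp1, the water channel of the capillary endothelium, had 11372, 14305 and 16588 in ozone lungs, against 4676, 6647 and 6851 in air lungs and rose by 1.16 ± 0.12. Aqp5, the water channel of alveolar type 1 cells, had −0.27 ± 0.15 and adjusted p = 0.248. Among 16 junction genes, 5 rose and 1 fell, 3 rising without O3 13, O3 15 or O3 20 and 2 falling without Air 1, without Air 10, without Air 1 and Air 2 or without all 3 of these. Cldn5, the endothelial claudin, had 3694, 4728 and 6115 in ozone lungs, against 1886, 2757 and 3513 in air lungs and rose by 0.83 ± 0.14, Ocln, the tight-junction protein occludin, rose by 0.35 ± 0.07, and Gjb2, a gap-junction connexin, had −1.19 ± 0.25. Cldn18, the claudin of the alveolar epithelium, had 0.09 ± 0.10 and adjusted p = 0.585. The basal-cell keratin Krt17 rose to 26.4 ± 12.1 in ozone lungs, against 2.03 ± 1.41 in air lungs (SD, n = 6 each), with no overlap, and it was the 1 of 4 basal markers tested to pass, with 1 other falling without Air 8 or Air 9.

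**Figure D4:**
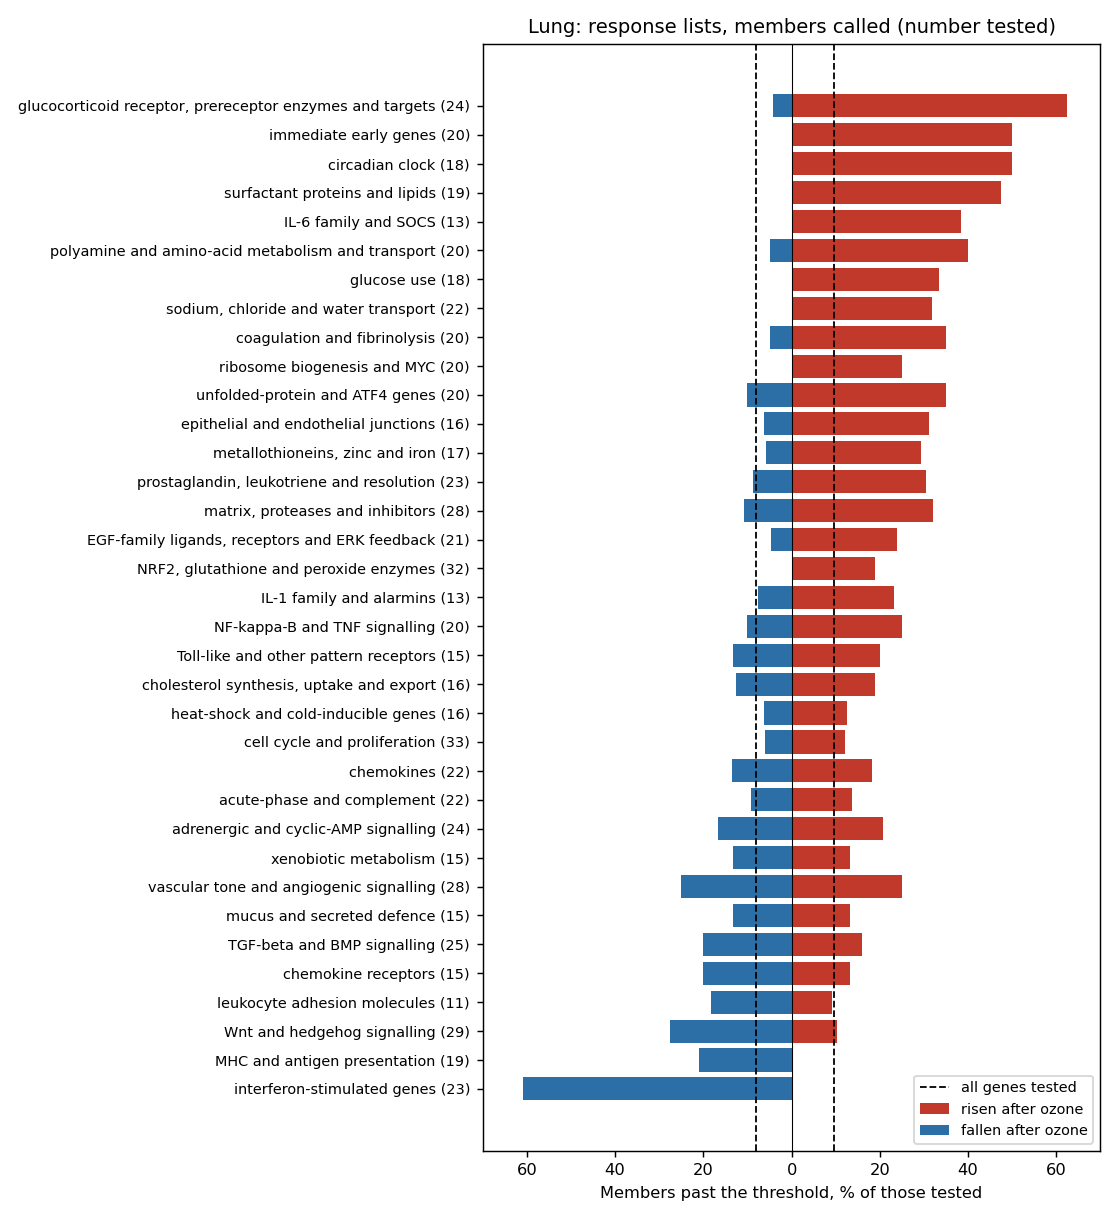
Share of tested members (horizontal axis, %) of 35 response lists that rose after ozone (red, right) or fell (blue, left) in lung, with the number tested in brackets; dashed lines mark the shares over all genes, 9.51% risen and 8.18% fallen. Interferon-stimulated genes (60.9% fallen) and glucocorticoid genes (62.5% risen) lie farthest from them.

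Vascular genes split. Of 20 genes of coagulation and fibrinolysis, 7 rose (35.0%) and 1 fell, and the same number rose in each fit that left out 1 library. F3, tissue factor, which starts clotting, had 3514, 4759.6 and 5491 in ozone lungs, against 1260.4, 2011 and 2425 in air lungs and a log2 fold change of 1.32 ± 0.17 (adjusted p = 8.91e-05). Plat, tissue plasminogen activator, had 4441, 5384 and 6126 in ozone lungs, against 2043, 2475 and 2770.4 in air lungs and rose by 1.11 ± 0.10, and Plaur, the urokinase receptor, had 130.1, 149 and 185 in ozone lungs, against 42.5, 50.01 and 86.1 in air lungs and rose by 1.45 ± 0.16. The groups were apart in all of these. Procr, the endothelial protein C receptor, rose by 0.98 ± 0.13. Thbd, thrombomodulin, had −0.03 ± 0.11 and adjusted p = 0.89, and Vwf had 0.08 ± 0.08 and adjusted p = 0.536.

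Of 28 genes of vascular tone and angiogenic signalling, 7 rose and 7 fell, 4 rising without Air 8, O3 19 or O3 20. Edn1, the vasoconstrictor endothelin-1, had 1704, 2082 and 2844 in ozone lungs, against 659, 1002 and 1112 in air lungs and a log2 fold change of 1.17 ± 0.15, and Ece1, which processes its precursor, rose by 0.96 ± 0.10. Ednra, the endothelin A receptor of smooth muscle, had −0.77 ± 0.10. Nrp1, a co-receptor of VEGF and semaphorins, had 4192, 5119 and 5794 in ozone lungs, against 10693, 11403 and 12372 in air lungs and a log2 fold change of −1.21 ± 0.09 (adjusted p = 1.12e-06). Kdr, the main endothelial VEGF receptor, had 7039, 7535 and 10656 in ozone lungs, against 11591, 13324 and 15683 in air lungs and a log2 fold change of −0.75 ± 0.11, and Vegfa had −0.46 ± 0.09. Calcrl, the receptor of adrenomedullin, had −0.71 ± 0.13, while Ramp3, a partner that directs it to adrenomedullin, rose by 1.56 ± 0.17. Of 12 pan-endothelial markers tested, 2 rose (16.7%) and 3 fell (25.0%), Kdr and Calcrl among those that fell. The risen count was 1 without Air 1 and Air 2, or without Air 2, Air 7, Air 8, O3 13, O3 14, O3 15, O3 19 or O3 20 alone. Their summed level ran from 62548 to 75574 in ozone lungs, against 79448 to 102329.5 in air lungs, without overlap. The sum gives most weight to the markers with the highest counts. The median log2 fold change of the 12 markers was −0.02, and 7 did not pass. Cdh5, VE-cadherin, another of these markers, had −0.09 ± 0.09 and adjusted p = 0.557. Lyve1, a hyaluronan receptor of lymphatic vessels and some macrophages, had 7959, 9298 and 10769 in ozone lungs, against 2320.5, 3029 and 4445 in air lungs and rose by 1.56 ± 0.14. Of 13 arterial, venous and lymphatic markers, Lyve1 among them, 4 rose (30.8%) and 2 fell (15.4%), with a median log2 fold change of 0.08. The fallen count was 1 without Air 1, Air 2, Air 7, Air 8, O3 13, O3 14, O3 16, O3 19 or O3 20 alone. It was also 1 without Air 1 and Air 2, with or without Air 10. Of 14 capillary markers, 3 rose and 2 fell, 4 falling without Air 10, alone or with Air 1 and Air 2. Gpihbp1, the capillary protein that holds lipoprotein lipase, rose by 1.66 ± 0.19 and Car4, a carbonic anhydrase of alveolar capillaries, had −0.83 ± 0.12.

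Of 28 genes of the matrix and its proteases, 9 rose and 3 fell. Adamts1 had 1359, 1796 and 2106 in ozone lungs, against 606, 721 and 864 in air lungs and rose by 1.25 ± 0.11, and Adamts9 rose by 1.03 ± 0.18 and Adamts15 by 0.86 ± 0.10, all proteases of proteoglycans. Timp1, an inhibitor of metalloproteinases, rose by 1.08 ± 0.25 (adjusted p = 0.00772), whereas Mmp9, the gelatinase of neutrophils and macrophages, had 11.9, 15.8 and 21.5 in ozone lungs, against 25.5, 39.7 and 43.7 in air lungs and a log2 fold change of −1.21 ± 0.19. The collagen gene Col1a1 had −0.33 ± 0.23 and adjusted p = 0.362, and Fn1, fibronectin, had 0.10 ± 0.11 and adjusted p = 0.606. In the EGF family, 5 of 21 rose and 1 fell, and 10 rose without Air 1, Air 2 and Air 10. Tgfa, a ligand of the EGF receptor, had 715, 772 and 879.6 in ozone lungs, against 212, 289.8 and 363 in air lungs and rose by 1.47 ± 0.12 (adjusted p = 3.27e-06). Errfi1, a feedback inhibitor of that receptor, had 3787, 4959 and 6038 in ozone lungs, against 1452, 1583 and 1821 in air lungs and rose by 1.59 ± 0.11. In both the ozone and air libraries did not overlap. Adam17, the sheddase that frees EGF-family ligands, had −0.39 ± 0.08.

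Immediate early genes encode transcription factors that cells make within minutes of a stimulus. Of 20 immediate early genes, 10 rose and 0 fell; 14 rose without Air 10, and 1 fell without Air 8. Maff rose by 1.44 ± 0.17, and Egr1 had 849.7, 1086 and 1543 in ozone lungs, against 142, 389.9 and 1698 in air lungs, with Air 10 above every ozone library, a log2 fold change of 1.46 ± 0.47 and adjusted p = 0.0523. Without Air 10, Egr1 had 1.87 and passed (adjusted p = 0.00171). In polyamine and amino-acid metabolism, 8 of 20 rose and 1 fell, 2 falling without O3 14 and 0 without Air 1, Air 2 and Air 10. Odc1, the first enzyme of polyamine synthesis, had 5199, 5814 and 7134 in ozone lungs, against 2140.0, 2608 and 3013 in air lungs and rose by 1.17 ± 0.11, and Sat1, which acetylates polyamines for export or breakdown, rose by 1.00 ± 0.13. Slc7a1, a carrier of cationic amino acids, rose by 0.86 ± 0.11. In glucose use, 6 of 18 rose and 0 fell, among them Hk2, a hexokinase, at 1.12 ± 0.15, and Pfkfb3, which makes an activator of glycolysis, at 1.47 ± 0.11. Among 29 Wnt and hedgehog genes, 3 rose and 8 fell, 5 falling without Air 1, Air 7, O3 19 or O3 20. The ligand Wnt5a had 421, 507 and 608 in ozone lungs, against 827, 881 and 1120.1 in air lungs and a log2 fold change of −0.88 ± 0.11, and Wnt11 had −0.71 ± 0.15. Of 24 glucocorticoid genes, 15 rose and 1 fell, 2 falling without Air 1, Air 9, Air 10 or O3 14, or without Air 1, Air 2 and Air 10. Map3k6, a stress kinase, rose by 2.08 ± 0.20, and Hsd11b1, the enzyme that regenerates corticosterone, had 0.09 ± 0.10 and adjusted p = 0.591.

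The lung response was then set against that of liver, adrenal gland, hypothalamus, adipose tissue and muscle. The difference tested was the lung log2 fold change minus the mean of the 5 others, in 1 limma fit of 68 libraries. The fit took in the 11111 genes with a mean of at least 10 in each of the 6 tissues. Genes under that mean in any tissue were left out, also where lung had more. The difference passed in 410 genes (3.69%), 309 with a higher value in lung (2.78%) and 101 with a lower value (0.909%). Without Air 10 the lower count was 66, without O3 20 it was 67, and without Air 1, Air 2 and Air 10 together the counts were 138 higher and 32 lower. Tissues were normalised apart, and the labels do not say whether equal numbers mark the same rat.

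Rgs16 had the highest difference, 2.98 ± 0.30 on the log2 scale (adjusted p = 1.57e-10): its log2 fold change was 3.10 in lung, and between −0.46 in muscle and 1.08 in adipose tissue elsewhere. Abcb1a, a drug and steroid efflux pump, had 1.84 in lung and between −0.27 in hypothalamus and 0.04 in muscle elsewhere, a difference of 1.96 ± 0.19. Npr3, the clearance receptor of natriuretic peptides, had 1.91 in lung and at most 0.27 elsewhere. For these genes no other tissue came near the lung value. Socs2, an inhibitor of cytokine and growth-hormone signalling, had 0.90 in lung and −3.67 in liver, with the remaining tissues between −0.99 in adrenal and 0.00 in muscle. Adamts4 also had 3.66 in adrenal, so its difference of 2.56 is not a pattern of lung alone. Mt2A had 4.64 in lung, 4.56 in adipose tissue, 3.45 in muscle, 2.635 in hypothalamus and 1.11 in liver, against −0.92 in adrenal. Mt1m had 4.12 in lung and 4.47 in adipose tissue, against −1.36 in adrenal. The differences of these metallothioneins are thus not a pattern of lung alone either.

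On the lower side, Il33 had −1.57 in lung, −2.13 in muscle and 2.30 in adrenal, a difference of −1.40 ± 0.21. G0s2, an inhibitor of triglyceride breakdown, had −1.59 in lung and between −0.74 in muscle and 0.61 in liver elsewhere. Its level in Air 10 was 1122, and without that library the difference was −1.29 and did not pass (adjusted p = 0.0539). Plin4, a coat protein of lipid droplets, had −0.14 in lung and between 0.90 and 2.70 in the other 5 tissues, where all values were above 0. Its difference was −1.88, and −1.23 without Air 10 (adjusted p = 0.14), and it also missed the threshold without Air 1, Air 2, O3 16 or O3 20, with adjusted p between 0.0563 and 0.0762. Without Air 1, Air 2 and Air 10 together, its lung log2 fold change was 1.53 (adjusted p = 0.0254) and the difference −0.21 (adjusted p = 0.893). Spon2, a secreted matrix protein, had −1.38 in lung and between −0.73 in liver and 1.86 in adrenal elsewhere, a difference of −1.47 ± 0.29.

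**Figure D5:**
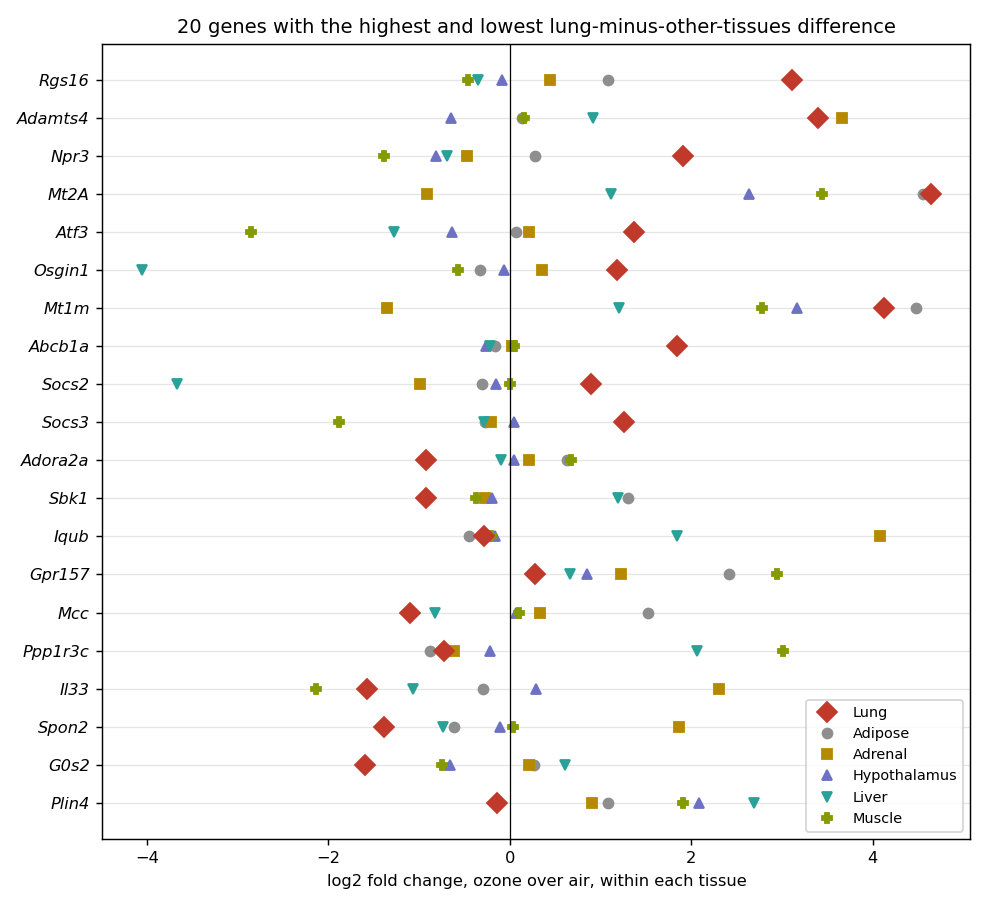
Log2 fold change of ozone over air (horizontal axis) within each of 6 tissues for the 20 genes (rows) with the highest and lowest difference between lung and the mean of the others. Red diamonds are lung. Rgs16, Npr3, Abcb1a, Atf3, Osgin1, Socs2, Socs3 and, narrowly, Mt2A have the lung value to the right of every other tissue. Plin4, G0s2, Spon2, Mcc, Gpr157, Sbk1 and Adora2a have it to the left of every other tissue.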

How the data were processed

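Messenger RNA was sequenced from 12 lung libraries, 6 after ozone and 6 after air. Per the submitters' processing notes, Partek, DESeq2 and the rn6 build were used; the sources used here name no aligner, counter, strand setting or annotation, and near-identical or overlapping genes are therefore uncertain. The deposited signal is a gene count scaled by a single size factor for each library, as the values themselves show: at a tolerance of 0.01, 100% were whole multiples of 1 read. Each table had 19465 entries, and 24 with a date in place of a symbol were left out.

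Genes with a mean of at least 10 were tested with limma 3.58.1 in R 4.3.3 on log2(value + 1), with a mean-variance trend and robust moderation, ozone against air, Benjamini-Hochberg threshold 0.05. A second limma fit over 68 libraries tested lung against the mean of the 5 other tissues, in genes with a mean of at least 10 in every tissue. The scripts were tested on simulated data. edgeR 4.0.16 and DESeq2 1.42.0, run on the recovered reads, other pseudocounts, filters and scalings, and fits without libraries were alternatives. No 2 libraries of a group were alike within sampling noise (chi-square over degrees of freedom at least 8.76, genes with at least 20 reads).

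The members and gene lists were chosen with earlier results of these data known. Named genes are the 15 highest and 15 lowest fold changes without overlap (mean at least 50), anchors and the 5 lowest adjusted p of each list, and the 10 highest and 10 lowest differences between lung and the other tissues. Epor, Pcdhb21 and Ifi44 fall outside this rule and were chosen after their values were seen. Promoter sequences are from RefSeq, build GRCr8. Some genes that meet the rule are not reported here.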

Additional observations from a re-analysis of the deposited data

Results flagged for a closer look

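Levels of 140 named genes were examined in 280 groups of 6 libraries for 1 library far from the other 5. F3 and some genes named only for the tissue difference were not among them. By Dixon's critical value for that size, 30 levels stood apart. Chance marks about 1 in 20 groups. Air 10 had 8 of them, and Air 2, Air 9 and O3 15 had 4 each.

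In the ozone group, O3 13 was high in Bpifa1 (53.4 normalised counts, as are all levels here). O3 14 was high in Adamts9 (3555) and Plin4 (188). O3 15 was high in Epor (16.7), Ptgir (212), Steap2 (1006) and Ucp1 (58.5). O3 16 was high in Tlr5 (382) and low in Il1r2 (41.4) and Ramp3 (55.5). O3 19 was high in Gbp2 (1480), and O3 20 was low in Cxcl12 (799).

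In the air group, Air 1 was high in Lck (179) and Air 8 low in Edn1 (659). Air 2 was high in Hk2 (526) and low in Aqp1 (4676), Ocln (1952) and Ramp3 (18.1). Air 9 was high in Abcb1a (3200.4), Mlc1 (29.6) and Scnn1a (9143) and low in Adamts4 (2.77). Air 10 was high in Ucp1 (2424), Egr1 (1698), G0s2 (1122), Plin4 (713), Gpihbp1 (215) and Ccl4 (80.7), and low in Nfkbia (2149.8) and Gzmb (116).

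The ozone effect in lung differed from the mean of the 5 other tissues by limma in the 20 genes chosen for the tissue comparison. On the log2 scale, lung minus the others was 2.98 for Rgs16, 2.56 for Adamts4, 2.53 for Npr3, 2.47 for Mt2A, 2.26 for Atf3, 2.11 for Osgin1, 2.07 for Mt1m, 1.96 for Abcb1a, 1.92 for Socs2 and 1.78 for Socs3. It was −1.88 for Plin4, −1.53 for G0s2, −1.47 for Spon2, −1.40 for Il33, −1.40 for Ppp1r3c, −1.34 for Mcc, −1.34 for Gpr157, −1.30 for Iqub, −1.25 for Sbk1 and −1.21 for Adora2a. Beyond Plin4 and G0s2, leaving out 1 library ended the call for Atf3 (without Air 2 or Air 8), Mt1m (without Air 1, Air 7, Air 9, O3 13, O3 14, O3 15 or O3 20), Socs3 (without Air 2, Air 8 or O3 20) and Iqub (without Air 2). Leaving out muscle among the other tissues gave −0.81 for Ppp1r3c (adjusted p = 0.328), 1.44 for Socs3 (0.0616) and −1.84 for Plin4 (0.054), and leaving out adrenal gave 1.22 for Mt1m (0.37) and −0.54 for Iqub (0.394), none past the threshold. Mt1m also missed it at a pseudocount of 10 (1.32, adjusted p = 0.0716). Of the other tissues only muscle and adrenal were left out. Osgin1 had −4.055 and Socs2 −3.67 in liver, and their differences without liver were not tested. Without Air 1, Air 2 and Air 10 together, Socs3, Ppp1r3c, Iqub, Sbk1 and Adora2a also missed the threshold, with adjusted p between 0.0881 and 0.176.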

How the results depend on the processing

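Library weights gave 3941 lung genes past the threshold, 1842 of them fallen, against 2623 and 1213 with equal weights, and 750 fell without Air 1 and Air 2; the other tools, filters, pseudocounts and scalings kept each lung count within 1.5 times. Leaving out 1 library gave 1972 (without O3 20) to 3346 (without Air 10) genes, 1065 to 1778 risen and 907 to 1568 fallen, and 255 to 355 members of the gene lists past the threshold. The tissue difference passed in 286 to 382 genes in those fits, 219 to 296 higher and 66 to 86 lower in lung. It passed in 885 with group weights (630 higher, 255 lower), in 170 without Air 1, Air 2 and Air 10 (138 and 32), and had 67 lower at a mean of at least 50. With a replicate block on the number, 414 genes passed, against 410 (block correlation 0.00236). No paired analysis was possible because lung ozone and lung air libraries share no number. The fit without Air 1, Air 2 and Air 10 together was chosen after seeing the data.

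Of 140 named genes followed in these fits, 117 passed, and 116 of these, all but Hspa4l, passed in every fit without 1 library. Many of them were picked for their fold changes or low adjusted p in these same libraries, so this says little about other genes. F3, Atf3, Osgin1, Ppp1r3c, Mcc, Gpr157, Iqub, Sbk1 and Adora2a were not among the 140. Signs turned, in genes that had not passed, without Air 1, Air 2 and Air 10 for Cd4 (0.10), Cldn18 (−0.10), Col1a1 (0.21), Vwf (−0.039), Myh6 (1.61) and Plin4 (1.53, adjusted p = 0.0254 in limma), and without Air 1 and Air 2 for Myh6 (0.42) and Plin4 (0.29). Plin4 had 0.53 with library weights and −0.51 to 0.51 without 1 library; Thbd had −0.086 to 0.04 and Epor −0.18 to 0.004. The cause was not tested. Depth limits the genes near the minimum mean.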

Other observations

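Several gene groups outside the sections above also held members that rose or fell in lung. Over all genes tested, 9.51% rose and 8.18% fell. Of 16 heat-shock and cold-inducible genes tested, 2 rose (12.5%) and 1 fell (6.25%), near those shares. Both that rose encode cold-inducible RNA-binding proteins: Rbm3 had 3542, 3867 and 4040.5 in ozone lungs, against 1401, 1933 and 2338 in air lungs and a log2 fold change of 1.01 ± 0.11 (adjusted p = 2.22e-05 in limma), and Cirbp had 1275, 1796 and 2052 in ozone lungs, against 813, 1021 and 1205 in air lungs and a log2 fold change of 0.79 ± 0.13. The ozone libraries lay wholly above the air libraries in both. Hspa1b, the inducible heat-shock protein 70, had −0.40 ± 0.39 and adjusted p = 0.524. Hspa4l, a heat-shock chaperone, was the 1 that fell, at −0.62 ± 0.20 and adjusted p = 0.0458; the fallen count was 0 in most fits without 1 library and without Air 1 and Air 2, and 3 without Air 7.

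Of 15 xenobiotic enzymes, 2 rose and 2 fell (13.3% each), not far above the shares over all genes. Por, the reductase that feeds electrons to cytochromes P450, had 3360.0, 3556 and 4643 in ozone lungs, against 1428, 1482 and 1957 in air lungs and a log2 fold change of 1.23 ± 0.11. Fmo1, a flavin-containing monooxygenase, had −0.48 ± 0.08. The groups did not overlap in either gene. Of 24 adrenergic and cyclic-AMP genes, 5 rose (20.8%) and 4 fell (16.7%), the fallen count being 2 without Air 1, Air 2 and Air 10. Pde4a, a phosphodiesterase that breaks down cyclic AMP, had 94.6, 112 and 140.2 in ozone lungs, against 170.1, 207 and 221 in air lungs and a log2 fold change of −0.81 ± 0.12. Of 25 TGF-beta and BMP genes, 4 rose (16.0%) and 5 fell (20.0%). The fallen count was 3 without Air 1, Air 8, O3 13, O3 14 or O3 16, or without Air 1, Air 2 and Air 10. Tgfbr3, the co-receptor betaglycan, rose by 0.95 ± 0.19, and Bmp6, a ligand, had −0.68 ± 0.14.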
